A study of Mus musculus with 3 samples.

Results

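Among heart cells of C57BL/6J mice sorted on the surface protein CD45, 206 of 32215 barcodes that passed the quality limits carried fibroblast RNA. CD45, the product of Ptprc, marks leukocytes, so these barcodes are a small remainder in a sort made for other cells. A barcode was taken as a fibroblast with at least 10 molecules (UMIs, unique molecular identifiers) of Col1a1, Col1a2, Col3a1 and Dcn together and under 3 UMIs of the endothelial genes Cdh5, Egfl7, Cldn5 and Gpihbp1 together. Barcodes also needed 200 genes or more, with no more than 10% of UMIs mitochondrial. There were 40 in Sham against 60 in MI and 106 in MI-E. Of these, 57 also held at least 5 UMIs of the complement genes C1qa, C1qb and C1qc, which mark macrophages. They were set apart as likely doublets (a macrophage and a fibroblast under 1 barcode). The values below are from the other 149 barcodes, called C1q-low fibroblasts, unless another set is named: 32 in Sham against 50 in MI and 67 in MI-E.

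Single cells from the hearts of mice 8 to 9 weeks old were labelled Sham, MI or MI-E, and each group gave 1 library made with 10x Genomics 3' chemistry, version 3.1. MI stands for myocardial infarction in the study's title, and MI-E is not expanded in the labels. The same surgery text, a ligation of the left anterior descending artery, is attached to all 3 libraries, Sham included. The time after surgery, the sex of the mice and the number of hearts per library are not given. No genotype, drug or other agent is named for any group. With 1 library per group no difference between groups could be tested. Intervals below are exact, at 95%, and cover counting error alone, and values given in threes are in the order Sham, MI, MI-E.

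Cardiac fibroblasts keep the collagen network of the heart in repair. In the resting heart they express the transcription factor Tcf21, surface proteins such as Pdgfra and Cd34, the matrix proteoglycan decorin (Dcn) and the actin-severing protein gelsolin (Gsn). After an infarct they divide and become myofibroblasts, which make periostin (Postn) and contractile proteins such as smooth muscle actin (Acta2), and lay down the scar. In mature scar, cells with tendon- and cartilage-type matrix genes such as Comp and Cilp have been described in mice.

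Fibroblast markers outside the rule were found in most Sham and MI barcodes. Pdgfra, the PDGF receptor of fibroblasts, had a UMI in 24 of 32 barcodes in Sham, 35 of 50 in MI and also 40 of 67 in MI-E, and Tcf21, a transcription factor of cardiac fibroblasts, in 24, 26 and 30. Col1a1, Col1a2, Col3a1 and Dcn all had a UMI in 32, 45 and 59 barcodes, which is set by the rule that chose them. Ptprc, the gene of the sorted protein, had a UMI in 3, 8 and 28. Thinned to 1500 UMIs per barcode, Ptprc was found in 0 of 32 Sham barcodes, in 4.17% in MI and in 12.1% in MI-E. The 0 allows a share of up to 9.38% by the limit of 3 counts, or 10.9% by the exact upper bound, of barcodes with a UMI and not of cells that express the gene. The same thinning gave 30.4%, 29.7% and 34.5% in macrophages, the barcodes chosen by C1q. How the barcodes passed the sort cannot be read from these counts.

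Markers of other cell types were counted in the C1q-low fibroblasts, and those of leukocytes differed by library. The summed level of 16 macrophage markers was 907 counts per 1000000 UMIs (CPM) in Sham, 3278 in MI and as much as 4020 in MI-E. Macrophages of the same libraries held 39977, 33643 and 34637 CPM. The sum of 10 pan-leukocyte markers was 475, 812 and 940 CPM, and that of 10 neutrophil markers 184, 188 and 998 CPM. Of the neutrophil markers S100a8 and S100a9 together, 1 MI-E barcode held 353 UMIs and another 319. The B cell sum went the other way, at 689, 197 and 224 CPM. The endothelial sum was 15.4 to 38.5 CPM, with Cdh5 and Tie1 at 0 in all 3 libraries. The pericyte and smooth muscle sum was 30.0, 116 and 174 CPM, and barcodes with at least 5 UMIs of 5 pericyte genes numbered 0, 3 and 4. In the mesothelial list almost all UMIs were of C3, with Wt1, Msln and Upk1b at 0, and in the Schwann cell list Sox10 was at 0 in all 3. Since leukocyte RNA moved with the group, main values were also taken in leukocyte-poor barcodes, where 6 leukocyte genes held under 0.1% of UMIs. There were 28 of them in Sham against 39 in MI and 46 in MI-E, with macrophage sums of 174, 918 and 1038 CPM.

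The libraries differed in depth. They held 41140109 UMIs in Sham against 98814001 in MI and 104562768 in MI-E, and the C1q-low fibroblasts had medians of 7004, 10634 and 12769 UMIs. Barcode sequences shared by pairs of libraries numbered 26 to 45, and none was a member. Just outside the collagen limit, at 5 to 9 UMIs, there were 6, 13 and 17 barcodes, with median leukocyte shares of 0.608%, 0.809% and 0.792% of UMIs. Just inside, at 10 to 14 UMIs, there were 0, 6 and 8, with median leukocyte shares of 0.783% in MI and 0.977% in MI-E. These shares were near the macrophage medians of 0.891% in MI and 0.877% in MI-E. The lowest Sham member among the C1q-low held 39 collagen UMIs, so no C1q-low Sham barcode lay near the limit. A further 5, 3 and 27 barcodes met the collagen limit but also held at least 3 endothelial UMIs and stayed out.

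All members together took a larger share of the barcodes in MI and in MI-E than they did in Sham. They made up 0.36% of Sham barcodes (0.257% to 0.49%), 0.679% of MI (0.519% to 0.874%) and 0.863% of MI-E (0.707% to 1.04%). The share was 1.89 times as high in MI as in Sham (1.24 to 2.89), 2.4 times as high in MI-E as in Sham (1.65 to 3.54) and 1.27 times as high in MI-E as in MI (0.917 to 1.77). Without the C1q-positive barcodes the same ratios were 1.96 (1.24 to 3.16), 1.89 (1.23 to 2.98) and 0.964 (0.658 to 1.42). In leukocyte-poor barcodes they were 1.75 (1.05 to 2.96), 1.49 (0.909 to 2.47) and 0.848 (0.542 to 1.33), so there the interval of MI-E over Sham included 1. After thinning to 1500 UMIs the shares were 0.409%, 0.497% and 0.782%, and the intervals of Sham (0.287% to 0.566%) and MI (0.358% to 0.671%) overlapped. The interval of each MI-E to MI ratio above included 1. The order of their point values turned without the C1q-positive barcodes and also without those marked by the doublet caller Scrublet, at 0.386%, 0.708% and 0.626%. A share in a sort on CD45 is not a share of the heart's cells. B cells, at 2596 barcodes in Sham against 46 in MI and 309 in MI-E, are part of its denominator.

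Resting fibroblast genes were lower in the summed RNA of MI and MI-E. A level is the UMIs of a gene over all C1q-low fibroblasts of a library, as CPM of their UMIs, and a ratio counts as past 2-fold where log2 of (CPM + 10) differs by at least 1. Of 5499 genes with a mean of at least 20 CPM, 543 were at least 2-fold higher in MI than Sham (9.87%) and 491 were lower (8.93%), with a median log2 ratio of 0.00. Among 22 measured genes of the resting list, 0 were higher and 16 lower, with a median log2 ratio of -1.58. In MI-E over Sham, where 10.9% of all measured genes were higher and 7.89% lower, 1 was higher (Apod) and 16 lower, with a median of -1.81. Gsn stood at 22937 CPM in Sham (22327 to 23560) against 2325 in MI and 2986 in MI-E, and was thus 9.87-fold lower in MI than Sham (9.35 to 10.4). Gsn lies on mouse chromosome 2 at 35256380 to 35307892 of GRCm38, on the plus strand. Pi16, a marker of adventitial progenitor fibroblasts, stood at 1066, 139 and 156 CPM, and was 7.67-fold lower in MI than Sham (6.09 to 9.7). Cd34 stood at 642, 126 and 150 CPM, 5.09-fold lower in MI (3.92 to 6.63). Tcf21 stood at 321, 86.2 and 52.3 CPM, 3.72-fold lower in MI (2.64 to 5.25) and lower again in MI-E than MI, at 0.607 times (0.424 to 0.868). For these 4 genes Sham stood above both other libraries, and MI and MI-E lay within 2-fold of each other. The wider identity list of 16 genes had 4 lower in MI than Sham (Gsn, Cd34, Tcf21 and Dpt) and a median of -0.79.

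Those sums mix barcodes that differ widely in their share of Gsn. In the leukocyte-poor C1q-low set, Gsn held at least 0.3% of UMIs in 27 of 28 Sham barcodes, or 96.4% (81.7% to 99.9%). It did so in 16 of 39 in MI, or 41.0% (25.6% to 57.9%), and in 19 of 46 in MI-E, or 41.3% (27.0% to 56.8%). The limit of 0.3% was chosen after the values were seen, and 0 Sham, 2 MI and 7 MI-E barcodes lay between 0.15% and 0.6%. Barcodes above it are called Gsn-high and the rest Gsn-low, as ranges of 1 gene and not as cell types. Gsn-high barcodes had similar medians of 6527, 6190 and 7088 UMIs in Sham, MI and MI-E. Gsn-low barcodes were deeper, at medians of 24011 UMIs in MI and 28876 in MI-E, so they weigh most in the sums of those libraries. Gsn in them was 190 CPM in MI and 287 in MI-E, near the 180 and 210 CPM of macrophages.

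**Figure D1:**
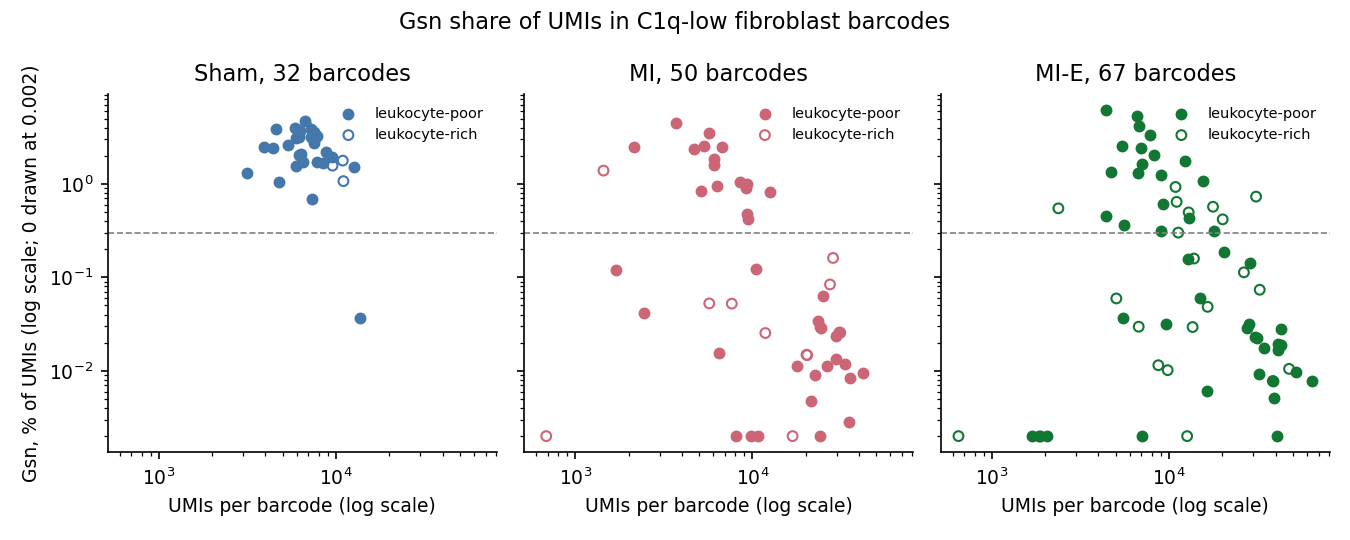
Share of a barcode's UMIs that came from Gsn (percent) against its total UMIs, 1 point per C1q-low fibroblast barcode and 1 panel per library, with a dashed line at 0.3%. Of all C1q-low barcodes, 31 of 32 in Sham lie on or above the line, against 17 of 50 in MI and 27 of 67 in MI-E, and most of the deepest barcodes of MI and MI-E lie below it.

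Collagen genes outside the rule mostly stayed within 2-fold. Of 13 measured, 2 were at least 2-fold higher in MI than Sham (Col12a1 and Col5a2), none was lower, and the median log2 ratio was 0.49. Col12a1, which decorates fibrils, had 8.56, 81.1 and 98.9 CPM. Col6a1, of the microfibrils around cells, had 535, 297 and 343 CPM, short of 2-fold. In MI-E over MI, where 1.07% of all measured genes were higher and 0.709% lower, 0 of the 13 collagen genes were past 2-fold in either direction. Col1a1, Col1a2 and Col3a1, which form the main fibres of the scar, and Dcn chose the members, so their levels are given as a description and support nothing. Col3a1 stood at 1536 CPM in Sham against 5317 in MI and 4973 in MI-E. Col1a1 stood at 1138, 2704 and 2762 CPM, Col1a2 at 1476, 3922 and 4724 CPM, and Dcn at 11567, 3881 and 4352 CPM.

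The non-collagen matrix genes split. Of 29 measured glycoprotein, elastic fibre and proteoglycan genes, 7 were higher and 9 lower in MI than Sham, with a median log2 ratio of -0.76. Tnc, which encodes tenascin C of provisional matrix, had 0 UMIs in Sham against 310 CPM in MI and 590 in MI-E, at least 24.2-fold higher in MI against a floor of 3 counts in Sham. One MI-E barcode held 224 of the 721 Tnc UMIs of that library. Fn1, fibronectin, stood at 64.2, 883 and 944 CPM, 13.8-fold higher in MI (8.28 to 24.7), while macrophages held 25.2, 527 and 509 CPM of it. Sparc, a collagen-binding glycoprotein, stood at 2615, 5805 and 6183 CPM, 2.22-fold higher in MI (2.04 to 2.42), with a UMI in every C1q-low barcode of the 3 libraries. Among the 9 lower genes, elastin (Eln) had 261, 78.5 and 74.4 CPM, Fbln1 852, 224 and 210 CPM, and Mfap4 937, 284 and 239 CPM. Mgp, the inhibitor of calcification, had 7634, 2394 and 3240 CPM. In the Gsn-high barcodes alone the log2 ratios of MI over Sham turned to 0.25 for Eln and 0.16 for Mgp.

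Genes that process and cross-link collagen were higher in MI and MI-E together. Of 17 measured, 12 were at least 2-fold higher in MI than Sham and 0 lower, with a median log2 ratio of 1.19, and in MI-E over Sham 12 were higher, with a median of 1.40. Lox, the lysyl oxidase that starts cross-links, had 3 UMIs or 12.8 CPM in Sham against 363 CPM in MI and 454 in MI-E, with a ratio of 28.3 (9.58 to 138) for MI over Sham. Serpinh1, the collagen chaperone, had a firmer base, at 924, 2115 and 2306 CPM and 2.29-fold higher in MI (1.98 to 2.65). Loxl2, P3h1, Fkbp10 and Plod2, of cross-linking and of hydroxylation and folding, were among those past 2-fold. MI-E and MI had 0 of 17 past 2-fold.

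Most activation genes of myofibroblasts stood higher in MI and MI-E than in Sham. Of 21 measured of 25, 15 were higher and 0 lower in MI than Sham, with a median log2 ratio of 1.85, and in MI-E over Sham 15 were higher, with a median of 1.38. Acta2 (chromosome 19, 34241090 to 34255590, minus strand) stood at 107 CPM in Sham (69.2 to 158) against 909 in MI (843 to 978) and 581 in MI-E (539 to 625). It was 8.49-fold higher in MI than Sham (5.71 to 13.2), and in MI-E it stood at 0.639 times its MI level (0.575 to 0.71). Tagln and Tpm2, partners of actin in contractile bundles, stood at 47.1, 394 and 312 CPM and at 25.7, 456 and 456 CPM. Cthrc1, a secreted collagen triple helix protein of scar fibroblasts, had 0 UMIs in Sham against 471 CPM in MI and 450 in MI-E, at least 36.7-fold higher in MI. Its UMIs came from 22 of 50 MI and 35 of 67 MI-E barcodes. Cthrc1 lies on chromosome 15 at 39076932 to 39087121, on the plus strand.

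Postn, the gene most used to mark activated cardiac fibroblasts, showed the spread between barcodes. It stood at 270 CPM in Sham (207 to 345) against 1139 in MI and 1160 in MI-E, 4.23-fold higher in MI (3.27 to 5.55). In Sham 49 of its 63 UMIs came from 1 barcode, which also held 17 of the 25 Acta2 UMIs, and Postn was found in 4 of 32 barcodes. It was found in 36 of 50 MI and 55 of 67 MI-E barcodes. Thinned to 1500 UMIs, 6.25% of Sham barcodes had a Postn UMI against 47.9% of MI and 54.5% of MI-E barcodes. In macrophages thinned the same way it was 0.105%, 0.174% and 0.319%. The thinned share of Cthrc1 was 0 of 32 in Sham against 18.8% in MI and 24.2% in MI-E. The thinned share of Acta2 was 12.5%, 39.6% and 24.2%, against 1.21% or less in macrophages. At equal depth, Sham was the lowest library for each of these genes.

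**Figure D2:**
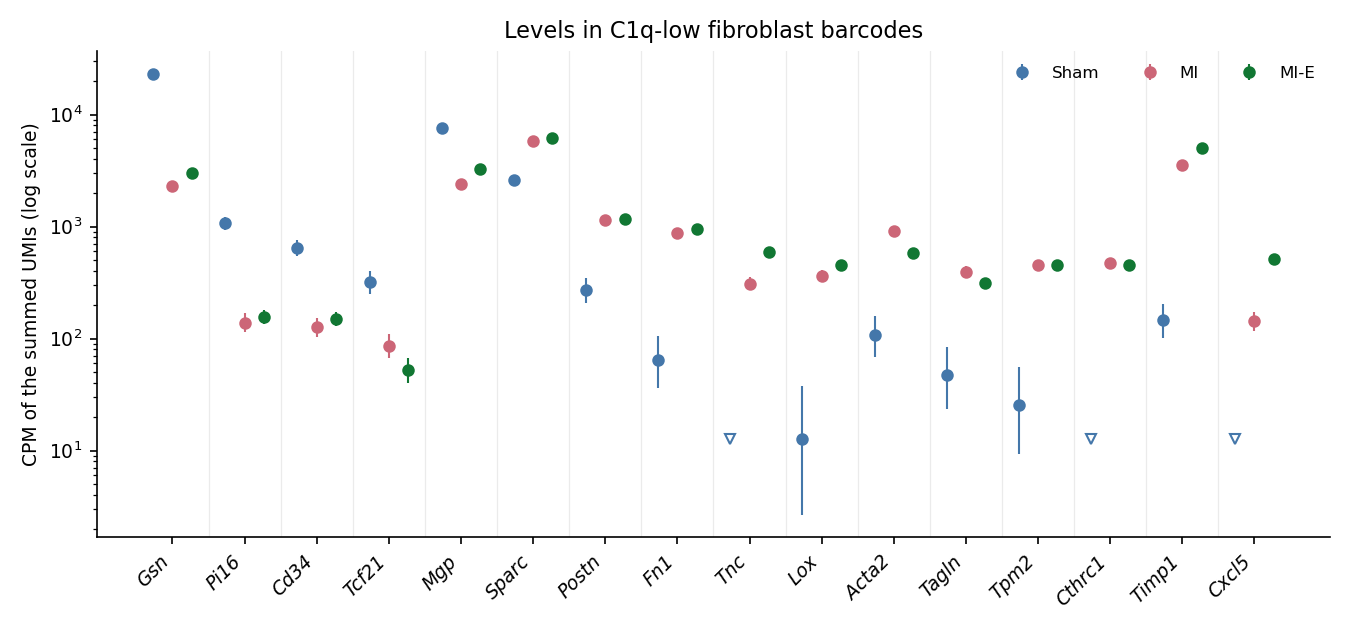
Level of 16 genes in C1q-low fibroblasts, in CPM on a log axis, with 1 point per library (Sham, MI, MI-E) and exact 95% Poisson intervals. Open triangles mark the level of 3 counts where a library had 0 UMIs, as Cthrc1 and Tnc did in Sham, and the MI and MI-E points lie close to each other for most genes.

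Late scar genes did not move one way. Of 11 measured, 3 were higher (Sfrp2, Thbs4 and Ccn4) and 3 lower (Cilp, Clu and Chad) in MI than Sham, with a median log2 ratio of -0.55. Comp, a cartilage matrix protein, stood at 210, 126 and 231 CPM, and single barcodes held 31 of 49, 57 of 98 and 223 of 283 UMIs. Fmod, which binds collagen fibrils in tendon, stood at 98.4, 54.1 and 91.6 CPM, with 106 of 112 MI-E UMIs in 1 barcode. Cilp stood at 445, 194 and 195 CPM, with 55 of 104 Sham UMIs in 1 barcode. These levels therefore rest on 1 or a few barcodes in each library.

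Of 18 measured proteases and inhibitors, 5 were higher and 4 lower in MI than Sham, and the tissue inhibitors went opposite ways. Timp1 (chromosome X, 20870166 to 20874735, plus strand), the inducible inhibitor of matrix metalloproteinases, stood at 146 CPM in Sham against 3551 in MI and 5055 in MI-E. It was 24.4-fold higher in MI than Sham (17.4 to 35.3) and 1.42 times as high in MI-E as in MI (1.36 to 1.49). Macrophages held 4.53, 43.8 and 65.9 CPM of it, and after thinning it was found in 15.6%, 64.6% and 62.1% of fibroblasts. Timp3, the matrix-bound inhibitor, stood at 518, 84.9 and 233 CPM, 6.1-fold lower in MI than Sham (4.48 to 8.36), and 76 of its 285 MI-E UMIs were in 1 barcode. Mmp2, the gelatinase of fibroblasts, stood at 458, 126 and 187 CPM, and Mmp14, its membrane-bound activator, at 68.5, 178 and 170 CPM. Adam12, a membrane protease, had 0 UMIs in Sham, 77.2 CPM in MI and 67.0 in MI-E. In MI-E over Sham 4 of the 18 were higher and 4 lower, and in MI-E over MI 2 were higher (Timp3 and Serpine2) and 0 lower.

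Ligands and targets of TGF-beta, the main inducer of myofibroblasts, mostly stayed within 2-fold. Of 24 measured genes, 1 was higher (Inhba) and 4 lower (Ltbp4, Ltbp1, Ccn2 and Ski) in MI than Sham, with a median log2 ratio of -0.61. The ligands Tgfb1, Tgfb2 and Tgfb3 stood at 98.4, 61.8 and 79.3 CPM, at 47.1, 77.2 and 137 CPM, and at 51.4, 30.9 and 37.6 CPM. Ccn2, the matricellular target also called CTGF, stood at 556, 221 and 274 CPM, and was 2.51-fold lower in MI (1.99 to 3.17). Ltbp4, which tethers latent TGF-beta to the matrix, stood at 1275, 242 and 339 CPM. Inhba, which encodes the activin A subunit, stood at 47.1, 111 and 376 CPM. It was 3.4 times as high in MI-E as in MI (2.69 to 4.33), with 149 of 460 MI-E UMIs in 1 barcode. In the Gsn-high barcodes alone the log2 ratios of MI over Sham turned to 0.24 for Ccn2 and -1.35 for Inhba. Among 6 measured WNT genes, 2 secreted antagonists were higher in MI (Sfrp2 and Sfrp1), and Wif1 was lower on the strength of 16 UMIs, all in 1 Sham barcode. Sfrp2 stood at 12.8, 263 and 185 CPM.

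Chemokine, cytokine and acute-phase genes went both ways. Of 24 measured, 10 were higher and 6 lower in MI than Sham, with a median log2 ratio of 0.61. Cxcl5, a neutrophil attractant, had 0 UMIs in Sham against 143 CPM in MI and 518 in MI-E, from 0, 21 and 30 barcodes, and was 3.62 times as high in MI-E as in MI (2.96 to 4.47). Cxcl12, which retains leukocytes and progenitors, stood at 25.7, 266 and 225 CPM. The monocyte attractants went the other way: Ccl2 stood at 1481, 844 and 1035 CPM, and Ccl7 at 1155, 386 and 620 CPM. Ccl11, which attracts eosinophils, stood at 274, 5.15 and 25.3 CPM, but 58 of 64 Sham UMIs were in 1 barcode. Il11, a profibrotic cytokine, stood at 4.28, 117 and 81.0 CPM, with 60 of 91 MI UMIs in 1 barcode. Cxcl2 stood at 1759, 4643 and 3965 CPM and Spp1, osteopontin, at 17.1, 700 and 1536 CPM. Macrophages held 13215 to 17852 CPM of Cxcl2 and 37.8, 6865 and 7429 CPM of Spp1, and the part of leukocyte RNA in Cxcl2 was not tested. For Spp1 the log2 ratio of MI-E over MI turned to -0.56 in leukocyte-poor and -0.45 in Gsn-high barcodes. Of 7 measured stromal complement genes, 3 were lower in MI and 0 higher. Serping1, the C1 inhibitor, stood at 1164, 492 and 522 CPM.

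Many interferon response genes were higher in MI than in Sham. Of 16 measured, 8 were higher and 0 lower in MI than Sham, with a median log2 ratio of 0.98. Bst2, an antiviral membrane protein, stood at 188, 664 and 647 CPM, and macrophages held 318, 777 and 732 CPM. It was lowest in Sham in either cell type, and the part of leukocyte RNA in its level was not tested. In MI-E over MI 0 of 16 were past 2-fold.

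Early-response and heat shock genes, which also rise during tissue dissociation, were lower in MI and MI-E. Of 24 measured, 0 were higher and 16 lower in MI than Sham, with a median log2 ratio of -1.30. Junb stood at 4403, 1349 and 1272 CPM in fibroblasts and at 2847, 866 and 973 CPM in macrophages. The heat shock gene Dnajb1 stood at 1100, 212 and 296 CPM, and at 497, 56.0 and 74.8 CPM in macrophages. The direction was the same in both cell types, and the part of cell handling in it was not tested.

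Most genes of the cell cycle stood lower in Sham than in MI, and some had 0 UMIs in Sham. Of 24 measured, 22 were higher and 0 lower in MI than Sham, with a median log2 ratio of 2.34, and 20 were higher in MI-E than Sham. Mki67, Top2a, Birc5 and Pclaf, of dividing cells, had 0 UMIs in Sham. Birc5 stood at 111 CPM in MI and 101 in MI-E, at least 8.62-fold higher in MI, and Mki67 at 77.2 and 43.3 CPM. The list as a whole was not at 0 there. Its median share per Sham barcode was 0.0853% of UMIs, against 0.139% for MI and 0.144% for MI-E. The list held over 0.5% of UMIs in 0 of 32 Sham barcodes, against 8 of 50 for MI and 13 of 67 for MI-E. Sham barcodes were shallower in total, and a level of 0 in Sham is compatible with up to 12.8 CPM, the value of 3 counts.

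The counts for these lists were close in barcodes with little leukocyte RNA. In leukocyte-poor barcodes 10.4% of measured genes were higher and 11.0% lower for MI over Sham, with 11.9% and 9.73% for MI-E over Sham and 2.29% and 0.946% for MI-E over MI. There, 15 of 21 activation genes were higher and 0 lower for MI over Sham, with a median log2 ratio of 1.97, and 0 of 22 resting genes were higher and 16 lower, with a median of -1.44. Of 24 proliferation genes 23 were higher and of 16 interferon genes 9, with medians of 2.52 and 1.24.

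**Figure D3:**
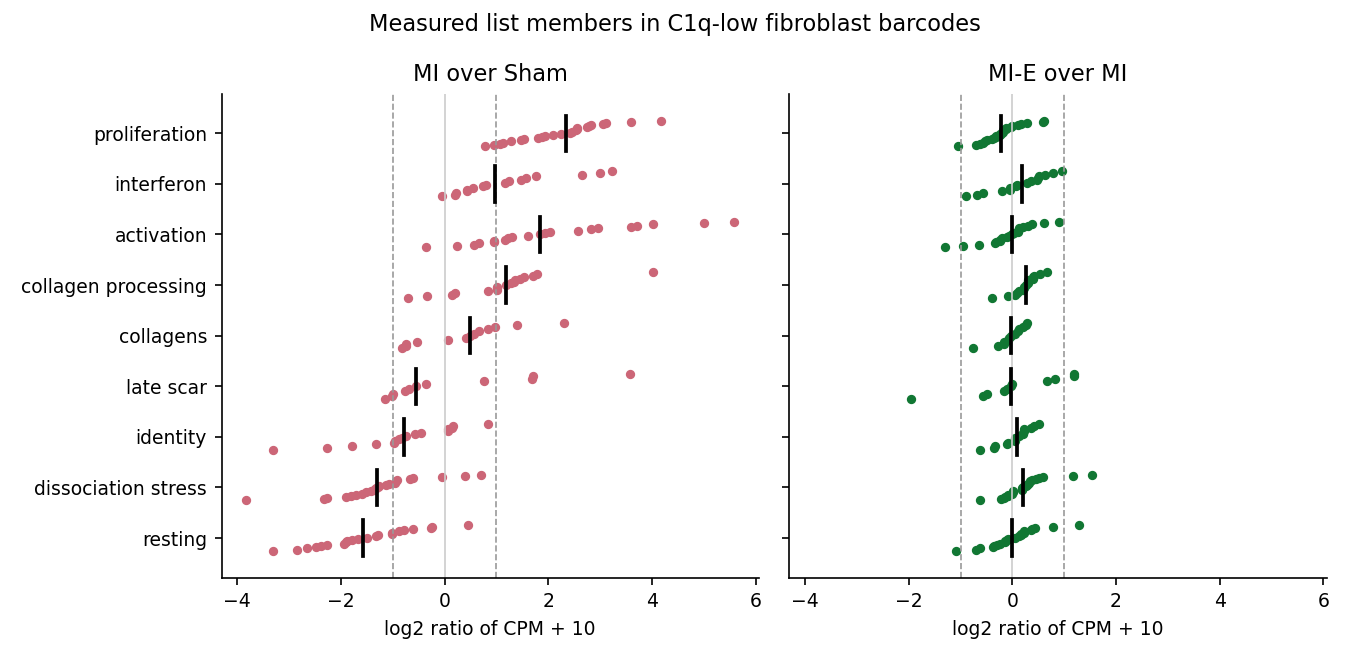
Log2 ratio of (CPM + 10) for the measured members of the fibroblast gene lists in C1q-low fibroblasts, 1 point per gene, with MI over Sham and MI-E over MI as separate panels and a black bar at the median of each list. In MI over Sham the proliferation and activation lists lie to the higher side and the resting and stress lists to the lower side, while in MI-E over MI every list has its median within 0.5 of 0.

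The Gsn-high barcodes allow a comparison of the libraries at a similar median depth per barcode, in leukocyte-poor barcodes alone. In this set 7.91% of the measured genes were higher and 11.9% lower in MI than Sham, 9.4% and 8.02% in MI-E than Sham, and 13.1% and 8.13% in MI-E than MI. These sums come from 27, 16 and 19 barcodes with 181720, 110355 and 161137 UMIs in all, so many genes rest on few UMIs. Gsn, itself a resting gene, chose this set, and Dcn helped to choose the members, so the levels of resting genes in it are a description. Of the 22 measured, 2 were higher and 3 lower in MI than Sham, with a median log2 ratio of -0.25. Cd34 stood at 710, 625 and 608 CPM, Dpt, dermatopontin, at 902, 924 and 1043 CPM, and Dcn at 12838, 13402 and 13082 CPM. Tcf21 was lower, at 380, 136 and 118 CPM, with a UMI in 22 of 27, 8 of 16 and 10 of 19 barcodes.

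Within the Gsn-high barcodes, the levels of Postn and Sparc were higher in MI and MI-E. That of Acta2 was not, but its Sham level rested mostly on 1 barcode. Postn stood at 286, 1133 and 1980 CPM. One barcode held 74 of the 125 MI UMIs and 1 held 159 of the 319 MI-E UMIs. It was found in 3 of 27 Sham barcodes, against 8 of 16 for MI and 12 of 19 for MI-E. Sparc stood at 2911, 5790 and 5678 CPM, 1.99-fold higher in MI than Sham (1.77 to 2.24). Acta2 stood at 132, 127 and 62.1 CPM and Tagln at 60.5, 99.7 and 93.1 CPM. The Sham barcode described above, with 17 Acta2 and 49 Postn UMIs, is in this set and held most UMIs of either gene. Acta2 was found in 6 of 27, 3 of 16 and 7 of 19 barcodes. Timp1 stood at 160, 988 and 943 CPM, but was found in 12 of 27, 9 of 16 and 10 of 19 barcodes, and single barcodes held 66 of its 109 MI UMIs and 96 of its 152 MI-E UMIs. Cthrc1 had 0 UMIs in Sham against 27.2 CPM in MI and 136 in MI-E. Of the 21 measured activation genes 8 were higher in MI than Sham, with a median log2 ratio of 0.77, against 1.85 in all C1q-low barcodes.

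Late scar genes mostly stood higher in Gsn-high barcodes of MI than of Sham, and interferon genes in those of MI and MI-E. Of all measured genes, 7.91% were higher and 11.9% lower in MI, and 9.4% and 8.02% in MI-E. Of 11 late scar genes 8 were higher and 0 lower in MI, with a median log2 ratio of 1.21. Comp stood at 204, 743 and 1669 CPM, with 57 of 82 MI UMIs and 223 of 269 MI-E UMIs in 1 barcode each. Cilp stood at 479, 915 and 1235 CPM, in 5, 6 and 12 barcodes. Thbs4, a thrombospondin, stood at 22, 381 and 223 CPM, with 36 of 42 MI UMIs in 1 barcode. Of 16 interferon genes 11 were higher in MI, with a median of 1.43, and 15 in MI-E, with a median of 1.83, and 0 were lower in either. Bst2 stood at 154, 598 and 583 CPM and was found in 15 of 27, 13 of 16 and 16 of 19 barcodes. Lgals3bp, a secreted galectin ligand, stood at 33.0, 199 and 298 CPM, in 6, 11 and 14 barcodes, and Ifit3 in 1, 5 and 11. Comp, by comparison, was found in 3, 4 and 7 barcodes. Ccl2 was lower in MI, at 1689, 136 and 465 CPM, and Cxcl1, a neutrophil attractant, stood at 2823, 589 and 3035 CPM.

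Acta2, Cthrc1, Timp1, Il11 and Cxcl5 stood higher in Gsn-low than in Gsn-high barcodes of MI and MI-E. The summed level of Postn did so in MI alone, but its level in Gsn-high barcodes of MI-E rested largely on 1 barcode. In MI, Acta2 stood at 1345 CPM in Gsn-low against 127 CPM in Gsn-high barcodes, a ratio of 10.6 (6.27 to 19.5). In MI-E it stood at 735 against 62.1 CPM, a ratio of 11.8 (6.39 to 24.9). Acta2 was found in 20 of 23 Gsn-low and 3 of 16 Gsn-high barcodes in MI, and in 21 of 27 and 7 of 19 in MI-E. Since the Gsn-low barcodes were deeper, their shares are not at equal depth. Pericytes and smooth muscle cells also express Acta2, and 3 Gsn-low but 0 Gsn-high barcodes of MI held at least 5 UMIs of the 5 pericyte genes, with 116 of the 665 Acta2 UMIs. Without them Acta2 in Gsn-low barcodes of MI was 1154 CPM, a ratio of 9.1 to Gsn-high (5.38 to 16.7). In MI-E such barcodes numbered 1 and 2, and without them the ratio was 15.3 (7.35 to 38.1). Cthrc1 stood at 706 and 620 CPM in Gsn-low barcodes of MI and MI-E, and Timp1 at 4748 and 6221 CPM. Il11 had 180 and 114 CPM in Gsn-low and 0 UMIs in Gsn-high barcodes of both libraries. Cxcl5 stood at 192 and 647 CPM, against 0 UMIs in MI and 31.0 CPM in MI-E. Postn stood at 1430 against 1133 CPM in MI, and was lower in Gsn-low barcodes of MI-E, with 1172 against 1980 CPM or 0.592 times. In MI-E, 1 Gsn-high barcode held 159 of the UMIs behind the 1980 CPM. Thinned to equal depth, Postn was found in 66.7% of Gsn-low MI-E barcodes (46.0% to 83.5%) against 52.6% of Gsn-high ones (28.9% to 75.6%). These intervals overlap, so the order of Postn in MI-E is not settled. Pi16 stood at 26.3 and 11.2 CPM in Gsn-low barcodes, against 752 and 881 CPM in Gsn-high ones. All 8 MI and all 8 MI-E leukocyte-poor barcodes with over 0.5% of UMIs from the proliferation list were Gsn-low. The 1 Gsn-low barcode of Sham gives no comparison.

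**Figure D4:**
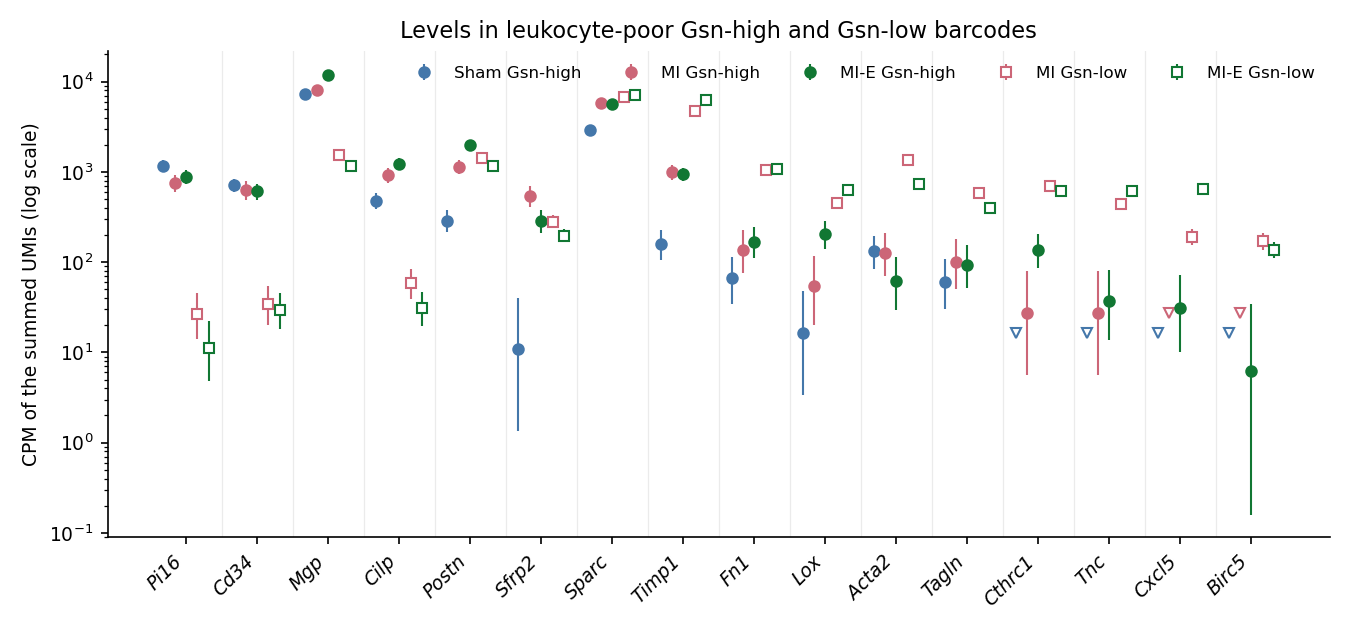
Level of 16 genes (CPM, log axis) in leukocyte-poor Gsn-high barcodes of Sham, MI and MI-E and in Gsn-low barcodes of MI and MI-E, with exact 95% Poisson intervals. Acta2, Cthrc1 and Timp1 are highest in the Gsn-low sets and Pi16 and Cd34 in the Gsn-high sets, Postn is present in both, and Gsn set the split.

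In the sums of all C1q-low barcodes, 59 of 5499 genes were at least 2-fold higher and 39 lower in MI-E than MI. The counts were larger in smaller sets, at 718 and 447 in Gsn-high barcodes and 260 and 195 in barcodes with under 5 leukocyte UMIs. By the rule for extreme genes, those highest in MI-E over MI included Cxcl5, Inhba, Hspa1b, Timp3, Bc1, Prelp, Meg3, Hspa1a, Serpine2 and Prg4. Hspa1b, a heat shock gene, stood at 33.5 CPM in MI and 116 in MI-E, below the 608 CPM of Sham. Meg3, a long noncoding RNA, stood at 107 and 263 CPM, 2.46 times as high in MI-E (1.93 to 3.18). Prg4, lubricin, stood at 251 and 502 CPM. Prelp and Serpine2 rested on few cells, with 182 of 338 and 104 of 322 MI-E UMIs in 1 barcode.

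The lowest in MI-E over MI were Fry, Hist1h2ap, Ecrg4, Klf13, Ptn, Cxcl10, Lpl, Cd302, Pclaf and Il6. Ptn, the growth factor pleiotrophin, stood at 98.4, 322 and 125 CPM, 2.57-fold lower in MI-E than MI (2.09 to 3.17). Klf13, a transcription factor, stood at 129 CPM in MI and 45 in MI-E, and was found in 35 of 50 and 34 of 67 barcodes. Lpl, lipoprotein lipase, stood at 226 and 101 CPM and Cd302, a C-type lectin, at 266 and 120 CPM. Fry was carried by 1 MI barcode, which held 100 of its 105 UMIs, and single MI barcodes also held 84 of 157 Ecrg4 UMIs and 100 of 197 Cxcl10 UMIs. Neutrophil markers S100a8 and S100a9 were also higher in MI-E than MI, beside the larger neutrophil sum given above. Of these 2 genes together, 1 leukocyte-rich MI-E barcode held 353 UMIs and another 319, and 1 MI barcode held 92. In Gsn-low barcodes of MI-E and MI, 132 genes were higher and 75 lower.

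By the same rule the 10 highest in MI over Sham were Cthrc1, Tnc, Timp1, Pclaf, Lox, Cxcl5, Tpm2, Hist1h2ap, Birc5 and Fn1. The 10 lowest were Ccl11, Gsn, Bmp2, Myoc, Clec3b, Vwa1, Igfbp6, Pi16, Ackr3 and Entpd2. Clec3b, tetranectin, stood at 685, 74.7 and 62.1 CPM, 9.17-fold lower in MI (6.75 to 12.6). Igfbp6, which binds insulin-like growth factors, stood at 659, 82.4 and 114 CPM, and Myoc, myocilin, at 214, 16.7 and 4.09 CPM. Bmp2, a bone morphogenetic protein, stood at 124, 3.86 and 14.7 CPM. For MI-E over Sham the extremes were Tnc, Cxcl5, Cthrc1, Timp1 and Lox on the higher side and Myoc, Clec3b, Scara5, Ccl11 and Gsn on the lower.

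The C1q-positive barcodes were a larger part of the members in MI-E. They made up 8 of 40 members in Sham, or 20% (9.05% to 35.6%), 10 of 60 in MI, or 16.7% (8.29% to 28.5%), and 39 of 106 in MI-E, or 36.8% (27.6% to 46.7%). In Sham the median C1q share was 1.04% of UMIs and the median leukocyte share 0.376%, against 1.35% and 0.601% in macrophages. In MI the values were 0.292% and 0.64%, against 0.624% and 0.891%. In MI-E they were 0.0366% and 0.226%, against 0.612% and 0.877%. The MI-E barcodes thus held far less C1q per UMI than macrophages of the same library. Of them, 13 had 5 to 9 C1q UMIs, against 0 in Sham and 0 in MI.

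The members also differed in depth by library, with medians of 7425, 13534 and 19420 UMIs over C1q-low and C1q-positive barcodes together. Median depth of the C1q-positive barcodes was 13497 UMIs in Sham against 35604 in MI and 33247 in MI-E, and the limit of 5 UMIs is the same at every depth. Of the 39 in MI-E, 15 were leukocyte-poor, or 38.5% (23.4% to 55.4%), with a median of 50861 UMIs, a leukocyte share of 0.0234% and a C1q share of 0.0193%. None of 8 in Sham and 1 of 10 in MI were leukocyte-poor. Thinned to 1500 UMIs, 8.33%, 7.14% and 4.44% of members reached 5 C1q UMIs. Leukocyte RNA near the macrophage level was thus seen in Sham and MI and in part of the MI-E barcodes, and the rest of the MI-E barcodes held little of it. Scrublet marked 0, 2 and 21 of the C1q-positive and 1, 0 and 16 of the C1q-low barcodes as doublets.

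**Figure D5:**
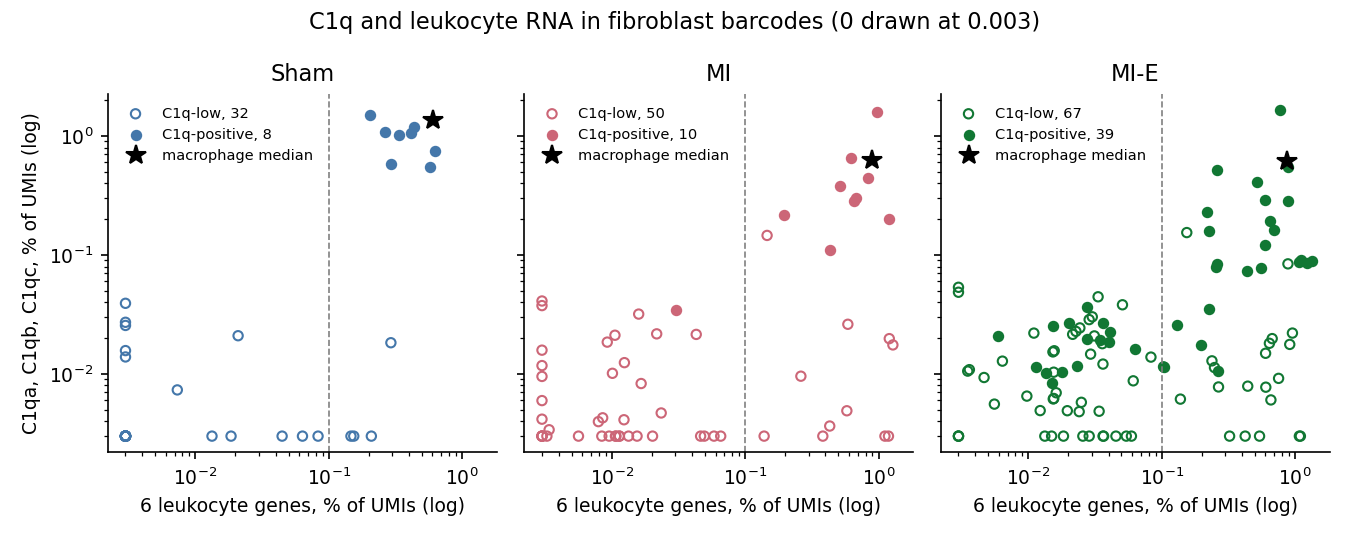
Share of UMIs from C1qa, C1qb and C1qc (percent) against that from 6 leukocyte genes (percent) in each fibroblast member, 1 panel per library, with a star at the macrophage median. Many C1q-positive MI-E points lie far below and left of the star, where the medians are 0.0366% for C1q and 0.226% for leukocyte genes. The C1q-positive Sham points lie nearer to the star of their panel.

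Gene levels in the C1q-positive barcodes followed the library. The 16 macrophage markers summed to 23258 CPM in Sham against 13204 in MI and 9020 in MI-E. Gsn stood at 5736, 376 and 751 CPM, and Timp1 at 123, 2456 and 6520 CPM. Cthrc1 had 0 UMIs in Sham against 638 CPM in MI and 232 in MI-E, and Postn stood at 46.1, 932 and 430 CPM. With these barcodes included, 33 genes were at least 2-fold higher in MI-E than MI, against 59 without them.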

How the data were processed

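Each sample's deposited matrix held raw UMI counts, whole numbers for 32285 genes, in barcodes that the authors' processing with Cell Ranger 5.0.1 against mm10 had called as cells, per the submitters' processing notes. No source used here gives the annotation release. The members, gene lists and limits were chosen with earlier results of these data known, and the split by Gsn and the limit on leukocyte genes after seeing the data.

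Counts were filtered as stated above and summed per library over the members, with CPM taken over their UMIs and log2 ratios of CPM + 10. A gene was measured at a mean of at least 20 CPM. With 1 library per group there is no test and no p-value. Levels have exact Poisson, ratios exact conditional and shares exact Clopper-Pearson intervals at 95%, for counting error alone. A gene at 0 was compared against 3 counts in the library. Macrophages were barcodes with at least 5 C1q UMIs, under 5 B cell UMIs and no fibroblast or endothelial call. The 18 fibroblast lists share some genes, and the rule's genes were left out of them. Ccl19 and Ddit3, whose symbols are not single in the files, were left out.

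Genes named are those the text describes by role, and the 10 highest and lowest ratios of MI over Sham and of MI-E over MI and the 5 of MI-E over Sham. These needed at least 100 CPM and UMIs in 10% of barcodes in the higher library, and a level above that in macrophages, neutrophils and B cells. Mitochondrial, ribosomal, haemoglobin, immunoglobulin and receptor genes, gene models and the rule's genes were passed over. Scrublet (scanpy 1.11.5) used a rate of 0.8% per 1000 barcodes and removed nothing. Gene positions are from the GRCm38 annotation. The steps ran in Python 3.11.15 with numpy 2.4.6, scipy 1.17.1, pandas 2.3.3 and matplotlib 3.10.9, with TMM factors from edgeR 4.0.16 in R 4.3.3 as an alternative, and were checked on simulated data. Alternatives were other limits on collagen, C1q, leukocyte and mitochondrial UMIs, other pseudocounts and filters, thinning, doublet removal and a mean over barcodes. Some genes are not reported here.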

Additional observations from a re-analysis of the deposited data

How the results depend on the processing

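No paired analysis was possible because each group holds 1 library. Leaving out a replicate was not run for the same reason. Depth limited the Sham fibroblasts most, where 3 counts correspond to 12.8 CPM. Causes of the differences below were not tested. The fibroblast share in Sham, MI and MI-E was 0.252%, 0.442% and 0.375% in leukocyte-poor barcodes. After thinning to 1500 UMIs it was 0.409%, 0.497% and 0.782%, without barcodes marked by Scrublet 0.386%, 0.708% and 0.626%, and without C1q-positive members 0.288%, 0.566% and 0.546%. The C1q-positive share was 8.33%, 7.14% and 4.44% after thinning. With at least 2 C1q UMIs it was 36.7% in MI and 68.9% in MI-E, and in MI-E it was 24.5% with at least 10 and 22.6% where leukocyte genes also held 0.1% of UMIs.

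Counts of genes at least 2-fold higher and lower in MI over Sham were 1291 and 993 after thinning, 189 and 163 with a pseudocount of 50 CPM, 934 and 828 without the filter, and 171 and 165 at 100 CPM. For MI-E over Sham the same settings gave 1217 and 817, 204 and 169, 1001 and 678, and 170 and 145. For MI-E over MI they gave 827 and 661, 15 and 10, 113 and 59, and 18 and 7. That last comparison also gave 137 and 76 with a pseudocount of 1 CPM, 260 and 195 with under 5 leukocyte UMIs per barcode, and 128 and 105 from the mean of barcode CPM. It gave 718 and 447 in Gsn-high barcodes. The higher count alone became 33 with C1q-positive members, 96 with at least 20 collagen UMIs and 126 in leukocyte-poor barcodes. The median of the activation list was 2.57 at 100 CPM and 0.77 in Gsn-high barcodes for MI over Sham, and -0.40 with under 5 leukocyte UMIs for MI-E over MI. Of the named genes past 2-fold, those still past it the same way under TMM factors were 75 of 75 in MI over Sham, 76 of 78 in MI-E over Sham and 23 of 23 in MI-E over MI. In Gsn-high barcodes they were 34 of 75, 38 of 78 and 12 of 23. After thinning they were 63, 66 and 12, and with a pseudocount of 50 CPM 67, 68 and 10. With C1q-positive members included they were 68, 74 and 11.

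Log2 ratios changed sign mostly in Gsn-high barcodes. For MI over Sham these were Acta2 -0.05, Ccn2 0.24, Cilp 0.92, Dcn 0.06, Dpt 0.03, Eln 0.25, Hist1h2ap -0.63, Il11 -0.63, Inhba -1.35, Mgp 0.16, Mmp3 -3.29, Prelp 0.16, Ptn -0.26 and Ptprc -0.63. For MI-E over Sham they were Acta2 -0.98, Bc1 -0.51, Cilp 1.35, Dcn 0.03, Dpt 0.21, Eln 0.02, Hspa1a 0.56, Htra3 0.22, Il11 -0.63, Mgp 0.71, Mmp2 0.29 and Timp3 0.58. For MI-E over MI they were Cxcl10 1.05, Hist1h2ap 0.70, Il6 0.27, Pclaf 0.70 and Spp1 -0.45. With under 5 leukocyte UMIs, MI over Sham gave Cilp 0.32 and Fry -0.32, MI-E over MI Ccl11 -0.10, and MI-E over Sham Cilp 1.55, Ecrg4 1.20, Hist1h2ap -0.31 and Mgp 0.57. With C1q-positive members included, Ptprc was -0.41 in MI over Sham and -0.43 in MI-E over Sham. In leukocyte-poor barcodes MI over Sham gave Fry -0.61 and Ptprc -0.60, and MI-E over MI gave Ccl11 -0.26 and Spp1 -0.56.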

Other observations

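Growth factors and metabolic genes of the C1q-low fibroblasts were not described above. Of 19 measured growth factor genes of stroma, 7 were at least 2-fold higher and 6 lower in MI than in Sham, with a median log2 ratio of -0.52. Igfbp3, which binds insulin-like growth factors, had 0 UMIs in Sham, 51.5 CPM in MI and 40.9 in MI-E. Mif, a cytokine of many cells, stood at 188, 659 and 630 CPM, and at 128, 614 and 507 CPM in macrophages. Bmp4 stood at 150, 29.6 and 26.2 CPM, and Vegfa, the vascular growth factor, at 231, 96.5 and 152 CPM. In MI-E over MI 1 of the 19 was higher (Igfbp5) and 1 lower (Ptn).

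Genes of glycolysis and of protein secretion lay to the higher side. Of 18 measured glycolysis and hypoxia genes, 6 were higher and 2 lower in MI than in Sham, with a median log2 ratio of 0.84. The glycolytic enzyme genes Eno1 and Pgk1 stood at 42.8, 266 and 200 CPM and at 98.4, 282 and 292 CPM, and macrophages held 133, 277 and 261 CPM of Eno1. Of 21 genes of the secretory pathway and the unfolded protein response, 8 were higher and 1 lower, with a median of 0.65. Sec61b, of the channel into the endoplasmic reticulum, stood at 372, 1115 and 981 CPM, and P4hb, protein disulfide isomerase, at 201, 552 and 541 CPM.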
